A study of Drosophila melanogaster with 36 samples.

Results

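Seminal fluid protein genes are described here as the genes whose FlyBase symbol begins with Acp or Sfp followed by a digit. The rule gave 47 of the 17612 genes in the whole-fly count files. Of these, Acp1 and Acp65Aa code for proteins of the adult cuticle and only share the prefix, so 45 seminal fluid genes remained and the cuticle genes are given apart. The study measured poly-A RNA in 36 libraries of Drosophila melanogaster. Whole flies of 3 d came from a transgene group with gcn5c450 and tub-GAL4 on 1 chromosome and c450 with UAS-HA-Gcn5 on the other, from homozygous gcn5 mutants (gcn5c450/c450) and from the wild-type strain 5905 (WT), with 4 libraries each. Heads and muscles came from WT flies of 3, 15, 30 and 45 d, with 3 libraries at each age.

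The transgene group carries the c450 allele on both chromosomes too, and expresses HA-tagged Gcn5 under the ubiquitous tubulin driver. The mutants rest on a single allele and the transgene group on a single combination of driver and transgene. Strain background and genotype cannot be told apart, and the labels name neither the sex of the flies nor whether replicates were separate cultures. The p-values therefore measure only the spread between these libraries. Gcn5 itself, the catalytic subunit of histone acetyltransferase complexes such as SAGA, averaged 2968 ± 166 CPM in the transgene group, 36.8 ± 0.559 CPM in mutants and 35.9 ± 7.10 CPM in WT (SD, n = 4 each). CPM are counts-per-million values after TMM scaling. The transgene was visible in every library labelled with it, and Gcn5 transcript level does not separate mutants from WT.

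Seminal fluid is made mainly by the accessory glands of the male, paired secretory organs whose cells export proteins in large amounts, with further products from the ejaculatory duct and bulb. The proteins pass to the female with the sperm and are known to act on egg laying, on sperm storage, on willingness to remate and on the processing of other seminal proteins. They include peptide hormones, proteases, protease inhibitors and lectins. Sex peptide (SP) and ovulin (Acp26Aa) are the best known of them. In RNA from whole flies, fewer gland cells and less RNA per cell cannot be told apart. The part of a different mix of males and females was not tested, and yolk and eggshell transcripts of each group are given next.

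Transcripts of the yolk genes were near the limit of counting in all 3 groups of whole flies. The yolk genes Yp1, Yp2 and Yp3 together took 0.000600 to 0.000886% of gene counts in transgene libraries, 0.000724 to 0.00115% in mutants and 0.000891 to 0.00109% in WT. Eggshell genes took 0.000720 to 0.00121% in transgene libraries, 0.000614 to 0.000724% in mutants and 0.000135 to 0.000267% in WT. Among them the chorion gene Cp15 had 5.15 to 8.43 CPM in transgene libraries and 2.43 to 5.55 CPM in mutants, against no count in all 4 WT libraries. A list of female germline genes took 0.0410 to 0.0448% in transgene libraries, 0.0378 to 0.0424% in mutants and 0.0331 to 0.0430% in WT. Most of this share came from orb. It had 370 to 416 CPM in transgene libraries, 337 to 385 CPM in mutants and 310 to 412 CPM in WT. The list sums were 407 to 446, 372 to 425 and 348 to 437 CPM in this order. No whole-fly library held a count of osk. The 32 listed testis and sperm genes took 1.64 to 1.80% in transgene libraries, 1.61 to 1.69% in mutants and 1.23 to 1.65% in WT. Libraries held 1621787 to 2821722 gene counts in whole flies, 3176508 to 4361043 in heads and 3000399 to 3675979 in muscles. A list of 17 gut enzymes took 0.315 to 0.495% in transgene libraries and 0.293 to 0.565% in mutants, against 0.829 to 1.05% in WT. The part of these shifts in the results below was not tested.

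The 45 genes lie on the autosomes, 23 on arm 2L, 8 on 2R, 8 on 3L and 6 on 3R, per the annotation r6.36 in the whole-fly files. None lies on the X chromosome, which holds 15.0% of all genes in these files. Their exons sum to between 168 bases (Sfp96F) and 2923 bases (Acp36DE). Acp95EF had no count in any of the 36 libraries. All 243 of its exon bases overlap Spase22-23 on the opposite strand, and read pairs in such an overlap are dropped when counting ignores strand, so nothing can be said about its level. The other 44 genes were tested. Of the 45 genes, 37 reached the level of 4.31 CPM that the filter on low counts asks for in all 12 whole-fly libraries. Sfp79B reached it in the mutant libraries alone, so its test rests on a level that had to differ. Sfp23F, Sfp24Bd, Sfp26Ac, Sfp33A2, Sfp33A4 and Sfp36F fell under it in 1 or more libraries.

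Levels of different genes are compared per length, as FPKM (CPM divided by exon length in kb). Sfp87B ranked first of the members, with 2021 ± 96.4 FPKM in the transgene group, 2473 ± 378 FPKM in mutants and 3403 ± 205 FPKM in WT (SD, n = 4). Sfp60F was second in each genotype as well. Acp36DE, a large glycoprotein needed for sperm storage in the female, ranked 3rd of the members in the transgene group and in mutants and 7th in WT, where Acp53Ea, Acp33A, Acp53C14b and Sfp24Bb stood above it. Over all 12 libraries Acp53Ea, Acp53C14b, Acp53C14a, Acp33A, Acp98AB, Sfp24Bb and Acp26Aa came after these, with means over the 12 libraries between 707 and 411 FPKM. The other 35 genes averaged 347 FPKM or less, down to 11.2 FPKM for Sfp38D among genes with any count. Among all 17612 genes ranked by FPKM, the highest 100 held 5 members in the transgene group, 8 in mutants and 2 in WT, and the highest 500 held 15, 17 and 15 in the same groups. Acp36DE ranked 58th of all genes in the transgene group, 27th in mutants and 138th in WT.

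The members together took a larger part of the RNA of mutants. Their share of gene counts was 0.657, 0.671, 0.709 and 0.732% in the transgene libraries, 0.859, 1.09, 0.957 and 0.962% in the mutant libraries and 0.669, 0.662, 0.637 and 0.669% in the WT libraries. Every mutant library lay above every library of the other genotypes, and the transgene and WT ranges overlapped. The mean share in mutants was 1.47 times that in WT, and the mean share in the transgene group was 1.05 times that in WT. Acp36DE weighed heavily in this sum, with 31.5 ± 0.670% of the members' counts in the transgene group, 35.7 ± 0.723% in mutants and 21.9 ± 0.448% in WT (SD, n = 4). Without Acp36DE, the mean share of the members in mutants was 1.21 times that in WT, and that in the transgene group was 0.921 times that in WT. The mean share of the testis and sperm genes in mutants was 1.08 times that in WT, and in the transgene group 1.11 times.

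**Figure D1:**
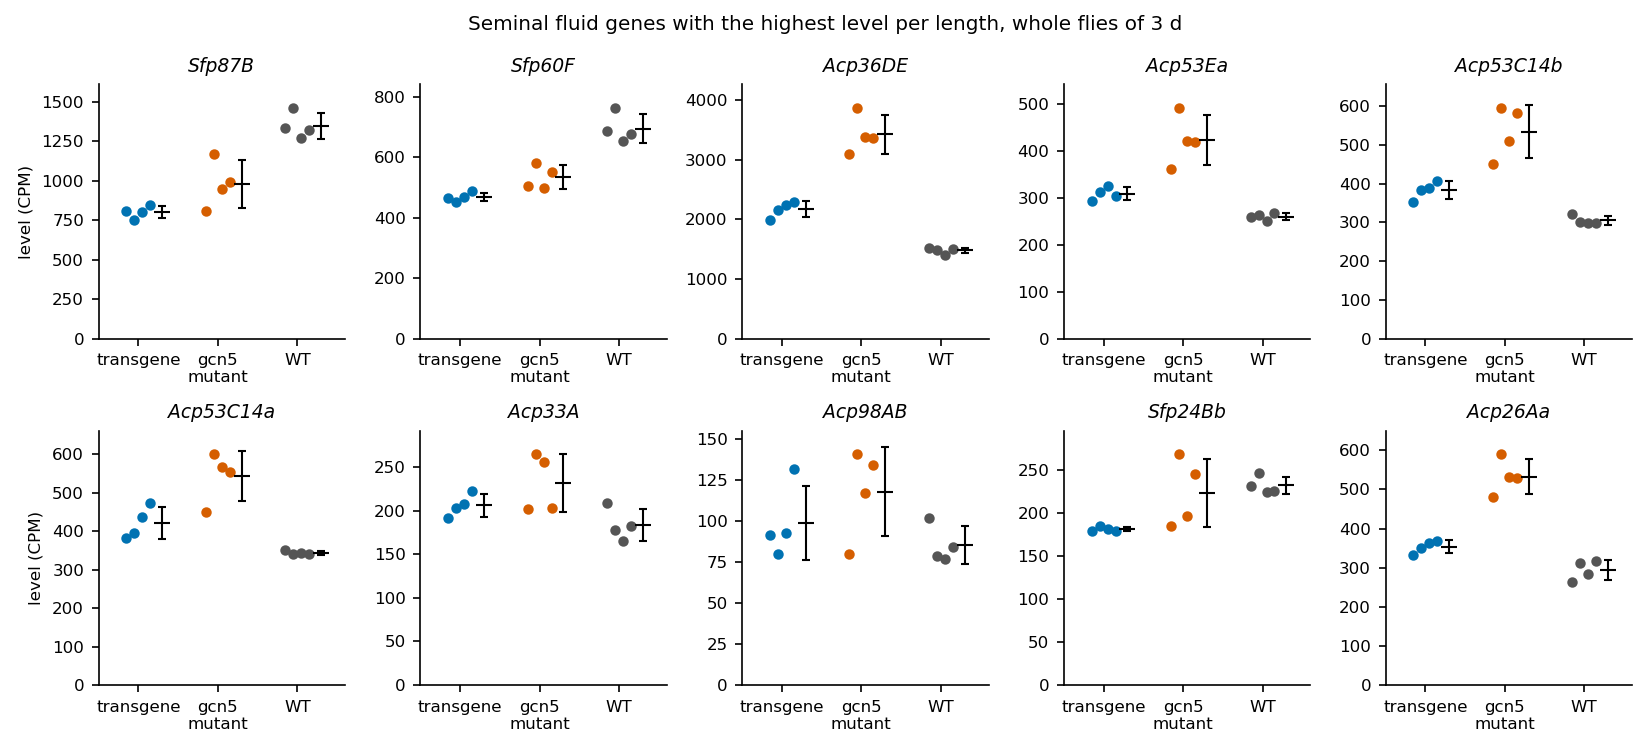
Level in CPM (linear axes from 0) of the 10 seminal fluid genes with the highest FPKM, in 4 whole-fly libraries per genotype (points), with mean and SD (bars), from left to right transgene group, gcn5 mutant and WT. Acp36DE, Acp53Ea, Acp53C14a, Acp53C14b and Acp26Aa are highest in mutants, while Sfp87B and Sfp60F are highest in WT, where Sfp87B averaged 1348 CPM.

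Mutants against WT show how the homozygous c450 genotype, together with its strain background, goes with seminal fluid transcripts. Transcripts of the sperm storage protein Acp36DE, of ovulin, of the inhibitor-like proteins Acp62F and Acp76A and of the whole Acp53 group rose, while the predicted protease inhibitor genes Sfp24Ba and Acp24A4 fell to a fraction of their WT level. Sfp87B and Sfp60F, the members with the highest level per length, fell slightly. Of the 44 genes tested, 25 rose (56.8%), 4 fell and 15 did not pass (edgeR quasi-likelihood test, Benjamini-Hochberg adjusted p under 0.05 over all 10723 genes tested). Over all genes tested, 6.37% were called higher and 8.82% lower. The median log2 fold change of the 44 genes was 0.59, beside 0.01 over all genes. The libraries of both genotypes did not overlap for 25 members, 21 of them higher in mutants and 4 lower, where 7.94% of all genes tested were higher without overlap and 9.17% lower. With scaling by library size alone the calls over all genes were 52.8% higher ones in place of 41.9%, and 27 members rose and 4 fell. The fold changes of called members were mostly moderate: 10 of the 29 were 2-fold or more. Sfp79B is counted in the 25, the 21 and the 10, though it was tested only through its mutant libraries. Leaving out each of the 8 libraries in turn, 18 of the 25 rises and all 4 falls passed every time. Sfp79B is among these 18 too, with the same limit.

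Acp36DE, the sperm storage glycoprotein (2L:18356047-18359028), had the most counts of any member. It had 1990.0, 2154, 2249 and 2289 CPM in the transgene libraries, 3104, 3878, 3378 and 3363 CPM in mutants and 1520.3, 1488, 1408 and 1497 CPM in WT. The 3 groups did not overlap, with mutants highest and WT lowest. The log2 fold change was 1.21 ± 0.07 (SE) in mutants against WT, with an edgeR Benjamini-Hochberg adjusted p of 2.01e-14.

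Acp26Aa, ovulin (2L:5892883-5893896), stimulates ovulation in the mated female. It had 333, 351, 363 and 368 CPM in the transgene libraries, 480.3, 590.4, 532 and 529 CPM in mutants and 263, 313, 285 and 317 CPM in WT. Each mutant library lay above all others, and the log2 fold change against WT was 0.86 ± 0.08 (SE, edgeR adjusted p 4.80e-10). Its neighbour Acp26Ab, 20 bases away on the same strand, averaged 71.2 ± 4.86 CPM in the transgene group, 106 ± 21.4 CPM in mutants and 70.9 ± 6.16 CPM in WT (SD, n = 4), and rose by 0.59 ± 0.12 (log2, SE) in mutants against WT. Acp29AB, a C-type lectin needed to keep sperm in storage, rose by 0.47 ± 0.14 (log2, SE), with 40.2 ± 6.01 CPM in the transgene group, 47.6 ± 3.89 CPM in mutants and 34.5 ± 6.39 CPM in WT (SD, n = 4). The call of Acp29AB was lost without any 1 of mutant replicates 3 and 4 and WT replicates 2 and 4 (adjusted p up to 0.0752).

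Members with the make-up of protease inhibitors moved in both directions. Acp62F, which resembles trypsin inhibitors, had 119, 122, 151 and 161 CPM in the transgene libraries, 260.2, 265, 226 and 243 CPM in mutants and 108, 103, 116 and 118 CPM in WT. The mutant libraries stood clear above both other groups, and the log2 fold change against WT was 1.16 ± 0.09 (SE, edgeR adjusted p 5.03e-11). Acp76A, a member of the serpin family, had 175, 202, 204 and 182 CPM in the transgene libraries, 299, 338, 329.7 and 326 CPM in mutants and 141, 161, 145 and 169.7 CPM in WT. Here too every mutant library exceeded the others, with a log2 fold change of 1.07 ± 0.08 (SE, edgeR adjusted p 8.69e-12).

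The predicted Kunitz-type inhibitor genes at 24A to 24B on arm 2L held the members with the deepest falls. Sfp24Ba (2L:3667977-3668551) had 28.1, 31.5, 23.7 and 27.7 CPM in the transgene libraries, 11.6, 16.5, 7.37 and 8.54 CPM in mutants and 50.7, 48.3, 51.2 and 55.4 CPM in WT. Acp24A4 (2L:3693184-3693905) had 106, 125, 113 and 126 CPM in the transgene libraries, 45.0, 69.8, 67.8 and 58.5 CPM in mutants and 187, 205, 184 and 173 CPM in WT. For both genes the 3 groups were fully separate, with mutants lowest, the transgene group between and WT highest. Sfp24Ba fell by 2.23 ± 0.18 on the log2 scale in mutants against WT (SE, edgeR adjusted p 6.92e-11), and Acp24A4 fell by 1.62 ± 0.10 (SE, edgeR adjusted p 3.12e-13).

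No fall was called for the genes next to these. Sfp24Bd starts 139 bases from Sfp24Ba and averaged 6.62 ± 2.27 CPM in the transgene group, 11.5 ± 1.09 CPM in mutants and 11.3 ± 1.98 CPM in WT (SD, n = 4). Sfp24Bb, the next gene after 126 bases, had 180.0, 185, 182 and 179 CPM in the transgene libraries, 185, 269, 197 and 246 CPM in mutants and 232, 247, 225 and 226 CPM in WT. Mutant and WT libraries of both genes overlapped, and the log2 fold changes were 0.02 ± 0.25 for Sfp24Bd and -0.05 ± 0.09 for Sfp24Bb (SE), neither past the threshold. Sfp24Bc, after another 355 bases, did not pass either, with a log2 fold change of 0.38 ± 0.27 (SE). Acp24A4 lies 22.6 kb beyond Sfp24Bc, and Sfp24C1, which follows it after 6.77 kb, rose by 0.64 ± 0.22 (log2, SE), a call lost without any 1 of mutant replicates 2 and 4 and the 4 WT replicates (adjusted p up to 0.218).

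The difference between Sfp24Ba and its neighbour is also described inside each library, by 1 of 8 ratios of neighbouring members. These ratios were added after the values were seen, so no p is given. The log2 ratio of Sfp24Ba to Sfp24Bd counts averaged 2.09 ± 0.60 in the transgene group, -0.12 ± 0.62 in mutants and 2.18 ± 0.25 in WT (SD, n = 4 each). Mutant and WT libraries did not overlap in this ratio. It had the largest difference between mutants and WT of the 8, so the separation is no support. Transgene and WT means lay close, but both genes averaged lower in the transgene group than in WT. Sfp24Ba averaged 27.8 against 51.4 CPM and Sfp24Bd 6.62 against 11.3 CPM.

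**Figure D2:**
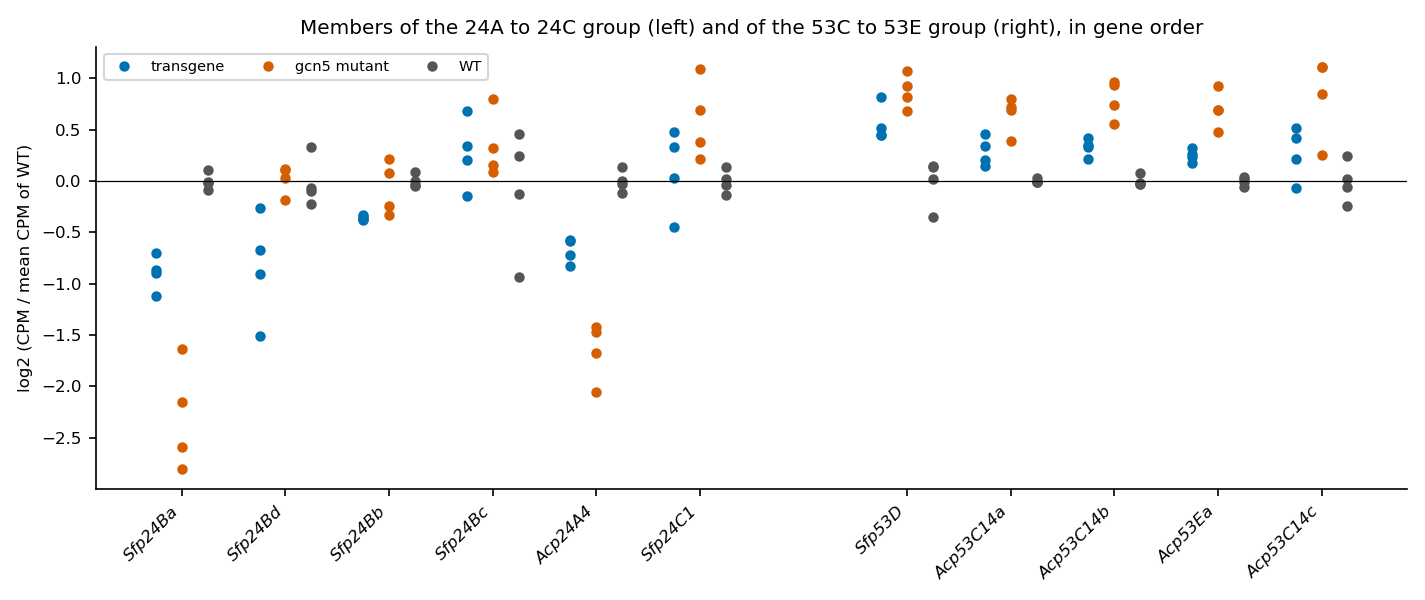
Level in each whole-fly library relative to the WT mean of the same gene (log2 scale, 0 is the WT mean), for members in gene order at 24A to 24C on arm 2L and at 53C to 53E on arm 2R, transgene group left, gcn5 mutant centre, WT right. Sfp24Ba and Acp24A4 lie lowest in mutants with genes between them near the WT mean, while all 5 genes of the right-hand group lie above the WT mean in every mutant library.

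The 5 members at 53C to 53E on arm 2R rose together. Acp53C14a, Acp53C14b, Acp53Ea and Acp53C14c are related genes in a row, separated by 224, 342 and 440 bases, and Sfp53D lies 2.72 kb from Acp53C14a. Acp53C14b had 353, 385, 389.6 and 408 CPM in the transgene libraries, 449.9, 597, 510.0 and 582 CPM in mutants and 322, 301, 299 and 299 CPM in WT. The 3 groups did not overlap, with mutants highest and WT lowest.

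Acp53Ea repeated this order, with 293, 313, 325 and 305 CPM in the transgene libraries, 361, 493, 421 and 419 CPM in mutants and 259, 264, 249.9 and 267 CPM in WT. Acp53C14a had 382, 395, 436 and 472 CPM in the transgene libraries, 449, 599.8, 567 and 554 CPM in mutants and 352, 341, 342 and 341 CPM in WT. Its transgene and mutant libraries overlapped at the edge, and both lay above WT. In mutants against WT the log2 fold changes were 0.66 ± 0.08 for Acp53C14a, 0.81 ± 0.08 for Acp53C14b, 0.71 ± 0.08 for Acp53Ea, 0.88 ± 0.17 for Acp53C14c and 0.88 ± 0.15 for Sfp53D (SE), all past the threshold.

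The members with the highest level per length went the other way. Sfp87B (3R:12273126-12273521) had 806, 751, 799 and 844 CPM in the transgene libraries, 808, 1171, 949 and 988 CPM in mutants and 1334, 1463, 1273 and 1320.3 CPM in WT. Sfp60F (2R:25172245-25172695) had 466, 453, 469 and 487 CPM in the transgene libraries, 505, 581, 497 and 551 CPM in mutants and 685, 764, 652 and 676 CPM in WT. Every WT library of both genes lay above all others. In mutants against WT, Sfp87B fell by 0.46 ± 0.08 (SE, edgeR adjusted p 8.55e-05) and Sfp60F fell by 0.38 ± 0.07 (SE, edgeR adjusted p 2.01e-04) on the log2 scale.

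Sfp79B showed the widest rise of a low gene. It had 1.98, 1.77, 1.51 and 3.61 CPM in the transgene libraries, 9.12, 13.7, 13.8 and 8.54 CPM in mutants and 0.402, 1.41, 1.37 and 1.76 CPM in WT. These levels rest on 23 counts in all transgene libraries, 92 in all mutant libraries and 11 in all WT libraries. The log2 fold change against WT was 3.16 ± 0.42 (SE). Sfp79B reached the filter level in mutant libraries alone, so its call and the separation of its libraries are no support for a change. Sfp33A4 had 7.14, 7.80, 7.16 and 3.21 CPM in the transgene libraries, 9.12, 10.9, 9.34 and 10.7 CPM in mutants and 2.41, 2.81, 7.77 and 4.84 CPM in WT. Its mutant and WT libraries did not overlap, with a log2 fold change of 1.17 ± 0.34 (SE, edgeR adjusted p 0.0169). The call was lost without WT replicate 1 (adjusted p 0.0738) and without WT replicate 2 (adjusted p 0.0608).

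Acp63F had 82.8, 82.9, 101 and 99.2 CPM in the transgene libraries, 111, 164, 129.7 and 138 CPM in mutants and 60.7, 61.9, 47.5 and 61.5 CPM in WT. The groups were fully separate and in the order of Acp36DE, with a log2 fold change of 1.23 ± 0.11 in mutants against WT (SE, edgeR adjusted p 1.06e-09). Acp33A had 191, 203, 208 and 223 CPM in the transgene libraries, 202, 265, 256 and 203 CPM in mutants and 209.6, 178, 165 and 183 CPM in WT. Acp98AB had 91.2, 79.7, 92.7 and 132 CPM in the transgene libraries, 79.6, 141, 117 and 134 CPM in mutants and 102, 78.3, 76.8 and 84.0 CPM in WT. For both genes mutant and WT libraries overlapped. In mutants against WT, Acp33A rose by 0.33 ± 0.09 (log2, SE, edgeR adjusted p 0.0110) and Acp98AB by 0.48 ± 0.14 (log2, SE, edgeR adjusted p 0.0185). The call of Acp33A was lost without mutant replicate 2 (adjusted p 0.0655), and that of Acp98AB without any 1 of WT replicates 2 and 3 and mutant replicates 2 and 4 (adjusted p 0.0510 to 0.0839).

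The remaining members that rose in mutants against WT were Sfp26Ad, Sfp33A1, Sfp33A2, Sfp38D, Sfp51E, Sfp65A, Sfp70A4 and Sfp93F. Sfp33A1 rose by 1.07 ± 0.24 and Sfp70A4 by 1.01 ± 0.22 (log2, SE). The call of Sfp33A2 was lost without any 1 of mutant replicates 1, 2 and 3 and WT replicates 1, 2 and 3 (adjusted p up to 0.175), and that of Sfp93F without any 1 of mutant replicates 1 and 2 and WT replicates 1, 3 and 4 (adjusted p up to 0.157). The 15 members that did not pass were Acp32CD, Acp54A1, Sfp23F, Sfp24Bb, Sfp24Bc, Sfp24Bd, Sfp24F, Sfp26Ac, Sfp33A3, Sfp35C, Sfp36F, Sfp77F, Sfp78E, Sfp84E and Sfp96F. Their log2 fold changes ran from -0.56 to 0.84 with SE up to 0.42, so a change of the usual size among members was not detectable for the lowest of them. By chromosome arm, 11 of 23 tested members rose and 2 fell on 2L, and 6 of 8 rose and 1 fell on 2R. On 3L 6 of 8 rose and none of the 8 fell, and on 3R 2 of 5 rose and 1 fell. The 6 on 3L include Sfp79B, which was tested only through its mutant libraries. Across the 44 members, the log2 fold change had a Spearman rho of -0.01 with exon length, where all points share the same libraries.

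**Figure D3:**
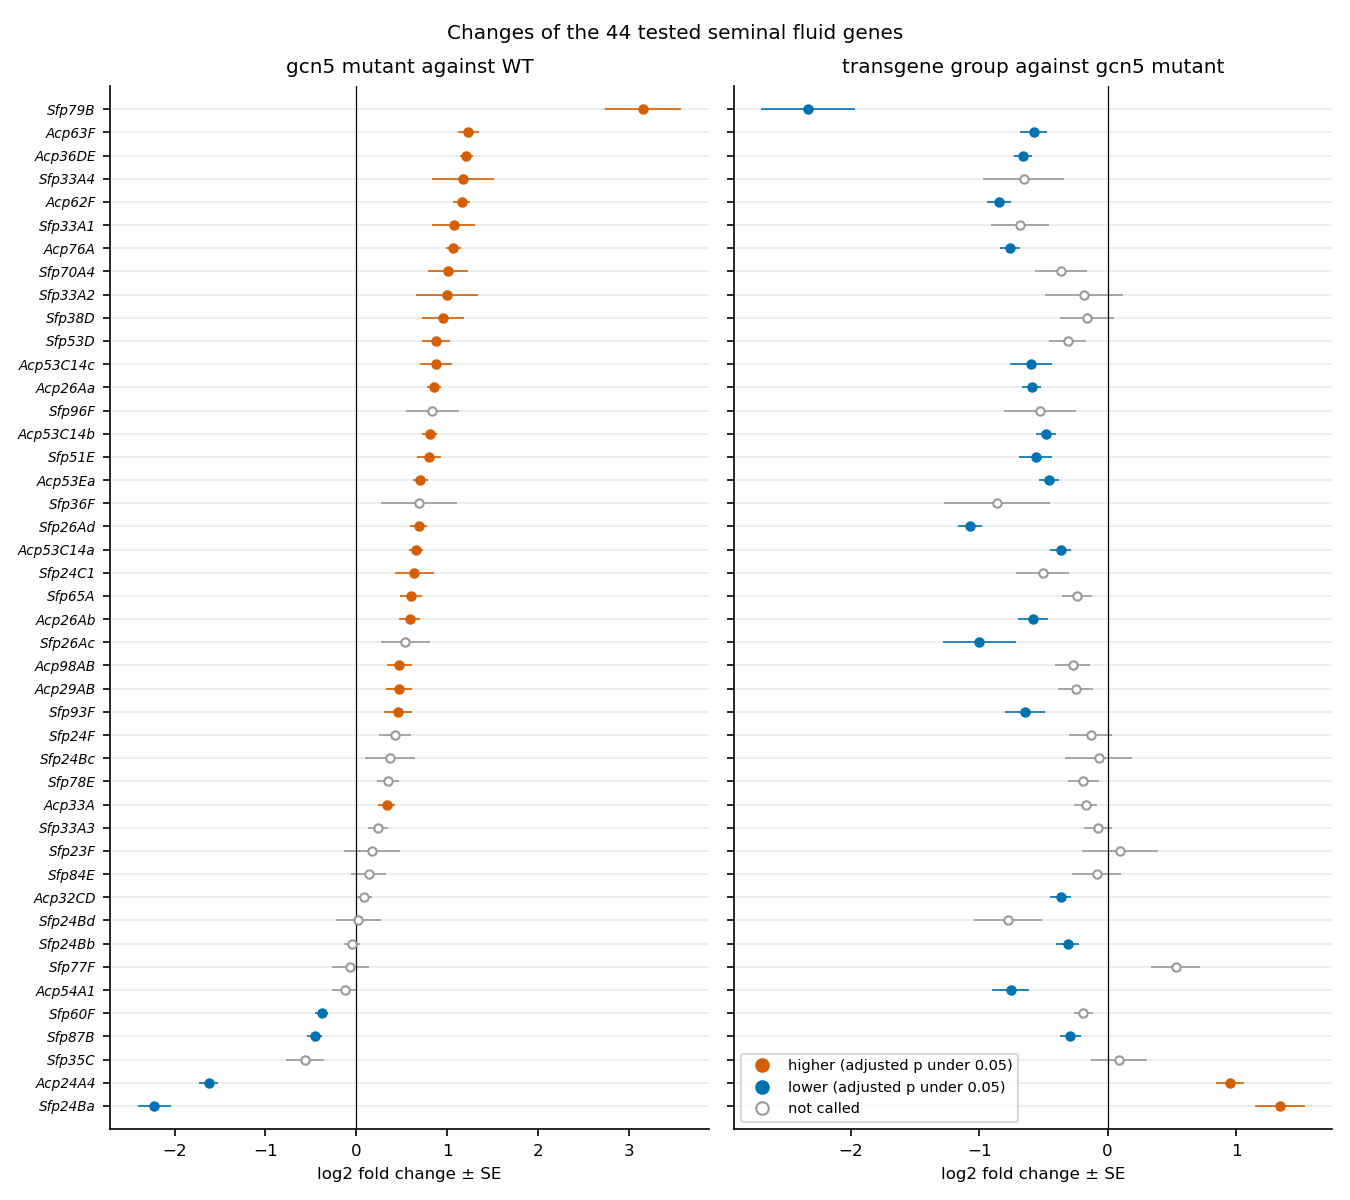
Log2 fold change with its SE for the 44 tested seminal fluid genes, in gcn5 mutant against WT (left) and in the transgene group against gcn5 mutant (right), ordered by the left panel. Filled points passed the edgeR test at an adjusted p under 0.05, 25 higher and 4 lower on the left, 2 higher and 19 lower on the right. Both panels use the same mutant libraries.

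The transgene group against mutants shows what ubiquitous HA-Gcn5 goes with in flies that carry the same allele. Acp36DE, ovulin, Acp62F, Acp76A and 4 of the 5 members at 53C to 53E fell, while Sfp24Ba and Acp24A4 rose. Of the 44 genes, 2 rose, 19 fell (43.2%) and 23 did not pass (edgeR, adjusted p under 0.05). Over all genes tested, 5.27% were called higher and 4.11% lower. The median log2 fold change was -0.37 over the members and -0.01 over all genes. Libraries of both groups did not overlap for 2 members that were higher and 18 that were lower, beside 7.88% and 6.78% of all genes. Sfp79B is counted in the 19 and the 18, though it was tested only through its mutant libraries. This comparison shares the mutant libraries with the one before, so an opposite sign in both is no separate evidence.

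Sfp24Ba and Acp24A4, the inhibitor genes that were lowest in mutants, were the 2 that rose, by 1.34 ± 0.19 (edgeR adjusted p 9.10e-06) and 0.95 ± 0.11 (edgeR adjusted p 1.09e-07) on the log2 scale (SE). Sfp79B had the lowest log2 fold change, -2.33 ± 0.36 (SE), but it reached the filter level in mutant libraries alone, so its call is no support. Sfp26Ad had 80.5, 91.8, 92.7 and 107 CPM in the transgene libraries, 182, 211, 188 and 199 CPM in mutants and 135, 116, 106 and 127 CPM in WT. Its transgene libraries lay under all mutant libraries, with a log2 fold change of -1.07 ± 0.09 (SE, edgeR adjusted p 6.21e-10).

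Sfp26Ac was a low gene, with 7.14, 3.90, 6.41 and 4.42 CPM in the transgene libraries, 9.12, 13.2, 12.3 and 8.97 CPM in mutants and 7.64, 6.10, 9.14 and 7.03 CPM in WT. Transgene and mutant libraries did not overlap, and it fell by 0.998 ± 0.281 on the log2 scale (SE, edgeR adjusted p 0.0190). The call was lost without any 1 of mutant replicates 2 and 3 and transgene replicates 2 and 4 (adjusted p 0.0609 to 0.0824). Acp62F fell by 0.84 ± 0.09 (edgeR adjusted p 4.89e-08), Acp76A by 0.76 ± 0.08 (edgeR adjusted p 2.03e-08) and Acp36DE by 0.66 ± 0.07 (edgeR adjusted p 2.29e-08) on the log2 scale (SE).

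Acp26Aa, Acp26Ab, Acp53C14a, Acp53C14b, Acp53C14c, Acp53Ea, Acp63F, Sfp51E and Sfp93F also fell, and so did Acp32CD, Acp54A1, Sfp24Bb and Sfp87B, which were not called higher in mutants against WT. The call of Acp53C14c was lost without mutant replicate 2, mutant replicate 3 or transgene replicate 2 (adjusted p up to 0.0859). Sfp24Bb fell by 0.31 ± 0.09 (edgeR adjusted p 0.0238) on the log2 scale, a call lost without any 1 of mutant replicates 2 and 4 and transgene replicates 1, 3 and 4 (adjusted p 0.0532 to 0.172). Sfp87B fell by 0.29 ± 0.08 (edgeR adjusted p 0.0172), a call lost without mutant replicate 2 (adjusted p 0.133) or transgene replicate 2 (adjusted p 0.0743). The 23 members that did not pass had log2 fold changes from -0.86 to 0.53. Acp98AB passed without mutant replicate 1 (adjusted p 0.0387) or transgene replicate 4 (adjusted p 0.0401).

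The transgene group against WT leaves both the allele and the transgene between the groups. Acp36DE, ovulin and most of the Acp53 group stood higher in the transgene group, and Sfp87B, Sfp60F, Sfp24Ba and Acp24A4 stood lower. Of the 44 genes, 12 rose (27.3%), 9 fell (20.5%) and 23 did not pass (edgeR, adjusted p under 0.05), where 7.6% of all genes were called higher and 8.23% lower. The median log2 fold change was 0.25 over the members and 0.00 over all genes. Libraries did not overlap for 10 members that were higher and 8 that were lower, beside 8.92% and 9.9% of all genes. Leaving out WT replicate 1 left 7 higher members, and leaving out transgene replicate 4 left 5.

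The 12 that rose were Acp26Aa, Acp36DE, Acp53C14a, Acp53C14b, Acp53Ea, Acp62F, Acp63F, Acp76A, Sfp38D, Sfp53D, Sfp65A and Sfp70A4, by 0.25 to 0.79 on the log2 scale. Acp36DE rose by 0.55 ± 0.07 (SE, edgeR adjusted p 3.73e-07). Of these 12 calls, those of Acp36DE, Acp53C14b, Acp63F and Acp76A held whichever of the 8 libraries was left out. The other 8 were each lost without at least 1 library, Acp53C14a without transgene replicate 4 (adjusted p 0.0757), Sfp53D without transgene replicate 3 or WT replicate 1 (adjusted p up to 0.0526) and Acp26Aa without transgene replicate 4 or WT replicate 1 (adjusted p up to 0.0825). The call of Sfp38D was lost in 3 such fits, that of Acp62F in 4, those of Acp53Ea and Sfp65A in 5 each and that of Sfp70A4 in 6, with adjusted p up to 0.0907, 0.121, 0.0896, 0.109 and 0.187 in this order. The 9 that fell were Acp24A4, Acp32CD, Acp54A1, Sfp24Ba, Sfp24Bb, Sfp24Bd, Sfp26Ad, Sfp60F and Sfp87B. The call of Acp32CD was lost without transgene replicate 2 or WT replicate 2 (adjusted p up to 0.0643) and that of Sfp24Bd in 6 of 8 such fits (adjusted p up to 0.158). Acp54A1 averaged 52.7 ± 2.40 CPM in the transgene group, 87.9 ± 29.2 CPM in mutants and 97.0 ± 5.10 CPM in WT (SD, n = 4), and Sfp24Ba fell by 0.89 ± 0.15 on the log2 scale (SE). Sfp87B and Sfp60F fell by 0.75 ± 0.08 (edgeR adjusted p 3.01e-08) and 0.57 ± 0.07 (edgeR adjusted p 4.79e-07) on the log2 scale (SE).

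Other genes of the seminal fluid, named by function rather than by the prefix, were taken from a list of 34, of which 30 were tested. The list took 0.444 to 0.715% of gene counts in whole flies. It also took 0.0597 to 0.101% in heads and 0.0306 to 0.0812% in muscles, where the members took no more than 0.00692%, so it is less particular to whole flies than the members. In mutants against WT 13 rose and none of the 30 fell by edgeR, beside 6.37% of all genes called higher and 8.82% lower. Of the 30, 2 had an unadjusted p under 0.05 in the lower direction, and DESeq2 called 14 higher and none of the 30 lower. The median log2 fold change of the list was 0.30, beside 0.01 over all genes. SP, the sex peptide that changes egg laying and receptivity of mated females, averaged 73.1 ± 10.7 CPM in the transgene group, 88.5 ± 14.1 CPM in mutants and 53.7 ± 2.81 CPM in WT (SD, n = 4). In mutants against WT it rose by 0.73 ± 0.12 (log2, SE, edgeR adjusted p 3.34e-05). The serpin Spn77Bb had the largest fold change of the list, with 78.9 ± 5.39 CPM in the transgene group, 168 ± 28.1 CPM in mutants and 40.9 ± 4.95 CPM in WT, a log2 fold change of 2.05 ± 0.11 in mutants against WT (SE, edgeR adjusted p 1.75e-14). The accessory gland genes msopa, Mst57Dc and Spn77Bc rose by 1.07 ± 0.10, 1.11 ± 0.11 and 0.90 ± 0.09 (log2, SE).

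The 9 male genes of the sex peptide network, whose products bind SP to sperm, are all on the list of 34 as well. Among them SP, aqrs, CG9997 and antr rose in mutants against WT, and these rises are already counted in the 13. None of the 9 fell by edgeR or DESeq2, with none of the 9 at an unadjusted p under 0.05 in the lower direction. Of all genes tested, 6.37% were called higher and 8.82% lower. Of the 4 tested genes that act in the female, SPR, the receptor of SP, fell by 1.31 ± 0.24 (log2, SE, edgeR adjusted p 1.86e-04), with 7.46 ± 1.49 CPM in mutants and 18.4 ± 3.73 CPM in WT (SD, n = 4). SPR is also expressed in neurons of both sexes. The 19 tested genes of the secretory pathway included 5 that rose, beside 6.37% of all genes, and none of the 19 that fell by edgeR, while 1 had an unadjusted p under 0.05 in the lower direction and DESeq2 called that many lower. The COPII coat gene Sec31 rose by 0.68 ± 0.10, the endoplasmic reticulum chaperones Hsc70-3 and Gp93 by 0.35 ± 0.07 and 0.35 ± 0.07 and the cargo receptor Tango1 by 0.37 ± 0.09 (log2, SE).

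Of 7 tested genes of the ejaculatory duct and bulb, EbpIII rose by 0.35 ± 0.07 and Antdh fell by 1.03 ± 0.28 in mutants against WT (log2, SE), and the other 5 did not pass. Over all genes, 6.37% were called higher and 8.82% lower in this comparison. In the transgene group against mutants, 5 of these 7 fell, beside 4.11% of all genes. Among them were EbpIII by 0.69 ± 0.07 and Dup99B, a duct peptide related to SP, by 0.56 ± 0.10 (log2, SE). Dup99B is also on the list of 34. In the transgene group against WT 5 of the 7 fell as well, beside 8.23% of all genes. The 30 tested genes of testis and sperm held 1 that rose in mutants against WT, the sperm chromatin protein gene ProtA, with a log2 fold change of 0.38 ± 0.12 (SE), and a list median of 0.08. None of the 30 fell by edgeR or DESeq2 or had an unadjusted p under 0.05 in the lower direction, while 6 had one in the higher direction. In the transgene group against WT, 6 of these 30 rose by edgeR and none of the 30 fell, beside 7.6% and 8.23% of all genes. Of 9 regulators of the accessory gland, such as prd and Abd-B, none of the 9 passed by edgeR or DESeq2, and 2 had an unadjusted p under 0.05, both lower in mutants. In the transgene group against mutants, the other seminal fluid list held 1 gene that rose and 13 that fell of 30, beside 5.27% and 4.11% of all genes. In the transgene group against WT it held 4 that rose and 3 that fell of 30, beside 7.6% and 8.23% of all genes.

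**Figure D4:**
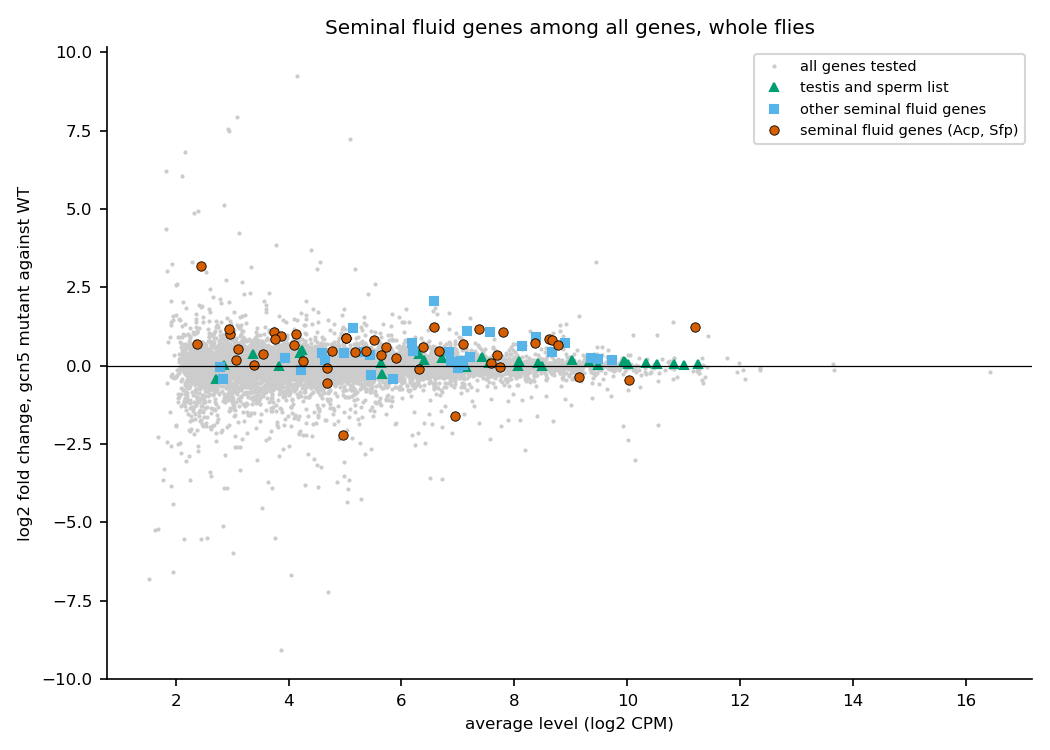
Log2 fold change in gcn5 mutant against WT (vertical) over average level in log2 CPM (horizontal) for all 10723 genes tested, with the 44 seminal fluid genes, the other seminal fluid genes and the testis and sperm genes marked. Most seminal fluid genes lie above 0 (median 0.59), testis and sperm genes lie near 0 (median 0.08), and Sfp24Ba and Acp24A4 lie lowest of the members.

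Both cuticle genes that share the prefix were low in whole flies. Acp1 had 3.57, 4.96, 6.41 and 6.02 CPM in the transgene libraries, 24.9, 8.97, 4.42 and 5.13 CPM in mutants and 9.66, 9.85, 8.68 and 9.67 CPM in WT. Mutant replicate 1 stood above all other libraries, and the log2 fold change of 0.12 ± 0.36 in mutants against WT (SE) did not pass. Acp65Aa had 0.793, 1.06, 1.13 and 0.402 CPM in the transgene libraries, 0.608, 0, 0.983 and 0 CPM in mutants and 0, 0, 0.457 and 0.440 CPM in WT, too few to test.

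Heads and muscles of WT flies served as a check, since neither tissue holds accessory glands. The gut enzyme list took 0.738 to 1.49% of gene counts in muscle libraries, against 0.829 to 1.05% in WT whole flies, and 0.00299 to 0.0111% in head libraries. The members took 0.00102 to 0.00619% of gene counts in head libraries and 0.000239 to 0.00692% in muscle libraries. In each tissue, 34 of the 45 genes stayed under 10 counts in every library, and 8 had no count in heads and 4 no count in muscles. The highest sums were 234 counts in head replicate 1 of 45 d and 238 counts in muscle replicate 1 of 30 d, against 36 to 148 counts in other head libraries and 8 to 81 counts in other muscle libraries. The 3 head libraries of 45 d thus ran from 37 to 234 counts and the 3 muscle libraries of 30 d from 8 to 238 counts. Whether these reads came from the tissue itself was not tested.

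Sfp84E and Sfp78E were counted in every head library, Sfp78E with 1 to 10 counts in each. Sfp84E had 8.78, 14.2 and 8.44 CPM in heads of 3 d, 7.63, 9.82 and 7.16 CPM at 15 d, 9.93, 6.95 and 9.34 CPM at 30 d and 4.48, 6.28 and 9.03 CPM at 45 d, from 18 to 51 counts in a library. Muscle libraries held no more than 1 count of it each, and whole flies 14.1 to 23.1 CPM. Its exons share 27 bases with Os-C on the opposite strand, a gene at 102 to 171 CPM in heads and up to 0.547 CPM in muscles. The exons of Sfp78E share 158 bases with CG11248 and a long noncoding RNA on the opposite strand. CG11248 had 27.7 to 43.6 CPM in heads. The part of reads from overlapping genes in the levels of Sfp84E and Sfp78E was not tested.

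Sfp84E was the single member tested in heads, where it averaged 6.60 ± 2.29 CPM at 45 d and 10.5 ± 3.22 CPM at 3 d (SD, n = 3). The ages overlapped, and the log2 fold change was -0.71 ± 0.27 (SE, edgeR adjusted p 0.0490) where 18.2% of all genes tested in heads were called lower and 17.5% higher. The call did not stand with DESeq2 (adjusted p 0.138), with library size scaling (adjusted p 0.0896), with the compared ages alone (adjusted p 0.0796) or with the replicate number as a block (adjusted p 0.0572). It was lost without 3 d replicate 2 (adjusted p 0.318), 45 d replicate 1 (adjusted p 0.195) or 45 d replicate 2 (adjusted p 0.116).

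Acp32CD was the single member that passed the filter on low counts in muscles. Libraries of 3 d held 0, 0 and 5 counts of it, under the filter's minimum of 10, so it passed only through older ages. It had 0, 0 and 2.47 CPM at 3 d, 7.79, 3.41 and 4.27 CPM at 15 d, 8.38, 0.259 and 5.58 CPM at 30 d and 4.87, 4.38 and 2.51 CPM at 45 d. Libraries of 45 d lay just above those of 3 d, as those of 16.9% of all genes tested did, and the log2 fold change was 2.32 ± 1.16 (SE, edgeR adjusted p 0.196), in a comparison where 8.21% of all genes were called higher and 11.1% lower. It passed by edgeR with scaling by library size (adjusted p 0.0222), which shifted the median log2 fold change of all genes by 0.88. It also passed without 3 d replicate 3 (edgeR adjusted p 0.0228), which left a 3 d group with no count of it. That replicate stood apart from other muscles of its age in gene ranks (Spearman 0.841 to 0.843). Neither pass is support for a change. Sfp53D, under that filter, was counted in all 12 muscle libraries and went the other way. It had 3.51, 3.46 and 4.44 CPM at 3 d, 0.577, 1.42 and 1.01 CPM at 15 d, 1.27, 0.518 and 0.507 CPM at 30 d and 0.464, 0.547 and 0.557 CPM at 45 d, from 2 to 9 counts in a library. With no filter on low counts the log2 fold change was -2.74 ± 0.57 at 45 d against 3 d (SE, edgeR adjusted p 0.00340). That fit called 867 of all genes lower and 666 higher. Over the 12 libraries of a tissue, Acp32CD had 163 counts per 100 of Acp36DE in muscles, 17.0 in heads and 8.13 in whole flies. Without muscle replicate 1 of 30 d, which held the most member counts, the muscle value was 245. The whole-fly value pools the 3 genotypes, which differ in Acp36DE, while heads and muscles are WT. WT whole flies alone held 1791 counts of Acp32CD and 13437 of Acp36DE. Reads were of 150 nt in whole flies and of 100 nt in heads and muscles. Acp32CD lies within the gene Samuel on the opposite strand, with no exon bases shared, and Samuel had 7.90 to 35.0 CPM in muscles. The part of Samuel transcripts and of transcripts from other organs in these counts was not tested.

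**Figure D5:**
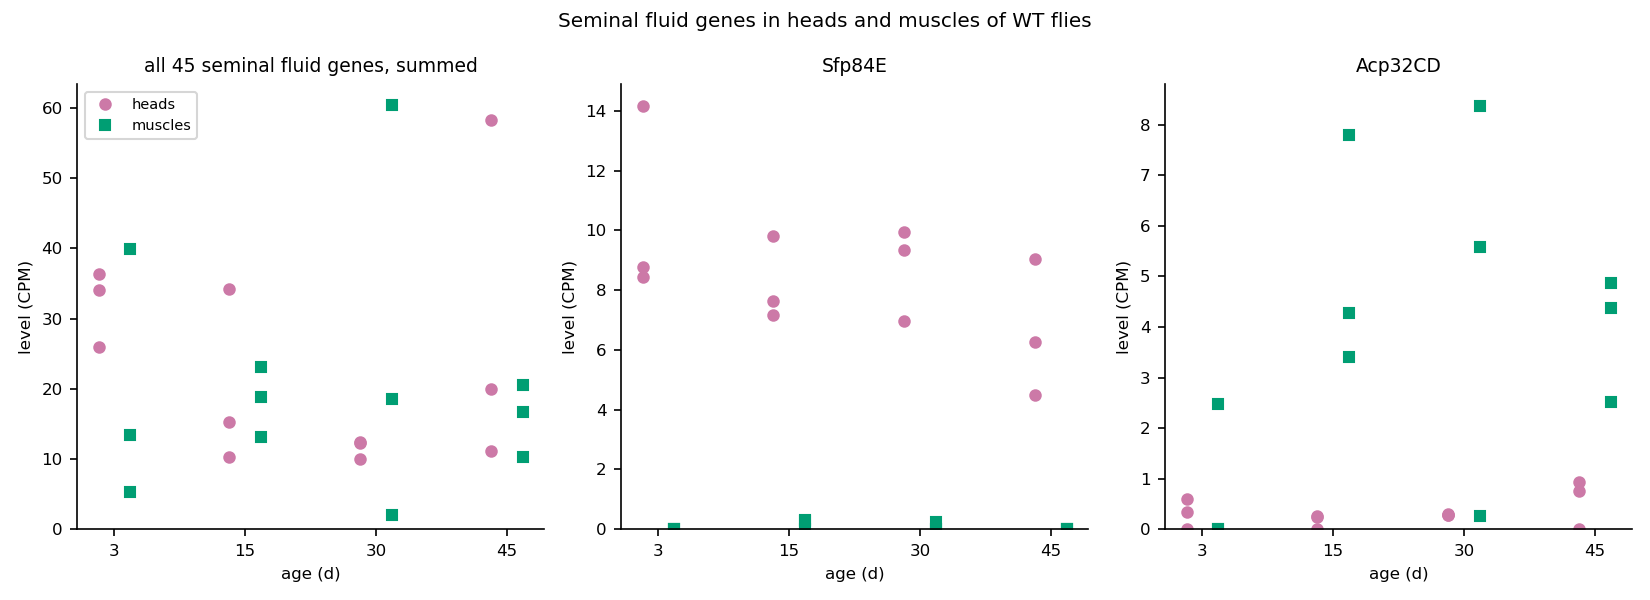
Level in CPM (linear axes from 0) in 3 libraries per age of WT heads (circles) and muscles (squares), for all 45 seminal fluid genes summed, for Sfp84E and for Acp32CD. Sums vary widely within an age, Sfp84E is seen in every head library, between 4.48 and 14.2 CPM, and Acp32CD reaches 8.38 CPM in muscles.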

How the data were processed

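The deposited values are raw counts per gene, and no other unit was used. Whole flies were counted by the authors with featureCounts 2.0.1 on annotation r6.36 as read pairs without a strand setting, per the file headers. The submitters' processing notes list STAR 2.7.6a, Trim Galore 0.6.6 and featureCounts 2.0.1 for heads and muscles as well, but those files end in tallies of another counter's form. Their counter, strand handling and genome build are therefore not given in the sources used. The tallies were left out (ambiguous reads 3.52 to 3.89% of all for heads, 2.49 to 3.78% for muscles).

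FlyBase symbols were found for 17547 of 17612 whole-fly genes. Separate fits per tissue used edgeR 4.0.16 (TMM, filterByExpr with a minimum count of 10, quasi-likelihood F-test, Benjamini-Hochberg over all genes). FPKM were computed from CPM and exon lengths. On simulated counts for mutants against WT (10568 genes), 59.2% of genes changed 1.5-fold and 84% of genes changed 2-fold were recovered. Alternatives were other scalings, DESeq2 1.42.0, no filter, fewer groups, a replicate block and leaving out each library. No replicates looked like 1 library deposited again (chi-square per degree of freedom at least 1.80). The members, gene lists and tests were chosen with earlier results of these data known. Values in every library are given for the 10 members with the highest FPKM, up to 5 with the largest rise and fall in mutants against WT and in the transgene group against mutants, and the cuticle genes. Member counts have no set test. No sequences are shown.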

Additional observations from a re-analysis of the deposited data

Results flagged for a closer look

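In 9 of 141 groups of 4 whole-fly libraries, 1 library of a gene lay far from the others by Dixon's ratio (gap to the nearest library over the whole range), where chance gives about 1 in 20. In the transgene group, replicate 4 of Sfp33A4 was low (3.21 against 7.14 to 7.80 CPM, ratio 0.856) and replicate 3 of Sfp53D was high (38.8 against 30.1 to 31.5 CPM, ratio 0.835). WT replicate 1 was high for the neighbours Acp53C14a (352 against 341 to 342 CPM, ratio 0.935) and Acp53C14b (322 against 299 to 301 CPM, ratio 0.888), and low for Sfp23F (4.02 against 7.31 to 7.98 CPM, ratio 0.832). WT replicate 2 was low for Sfp51E (26.3 against 36.6 to 37.8 CPM, ratio 0.890). WT replicate 3 was low for Acp63F (47.5 against 60.7 to 61.9 CPM, ratio 0.918) and for Acp1 (8.68 against 9.66 to 9.85 CPM, ratio 0.832). WT replicate 4 was high for Sfp65A (49.2 against 38.0 to 39.4 CPM, ratio 0.873).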

How the results depend on the processing

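In mutants against WT, other scalings, DESeq2, no filter, fewer groups and the block gave 22 to 27 higher and 4 to 5 lower members, and leaving out 1 library gave 20 to 24 and 4 to 5. In the transgene group against mutants, leaving out 1 library gave 2 to 3 higher and 15 to 20 lower members. In the transgene group against WT it gave 5 to 11 and 7 to 9. With the replicate block the counts were 24 and 4, 2 and 20, and 12 and 9 in these comparisons; same-numbered libraries of whole flies did not deviate together (correlations -0.08 to 0.03), and the numbers are not taken as pairs. In heads at 45 d against 3 d, higher members numbered 1 with DESeq2, 2 with no filter and 0 to 1 without 1 library. Lower members numbered 0 with library size scaling, DESeq2, the compared groups alone, the replicate block and 15 d in place of 3 d, 2 with no filter and 0 to 2 without 1 library. In muscles, higher members numbered 1 with library size scaling and 0 to 1 without 1 library, and lower members 1 with DESeq2 and 1 with no filter, which was Sfp53D. The cause was not tested. Scaling by library size moved the share of higher calls among all called genes to 57.2% in place of 48.0% in the transgene group against WT, to 69.0% in place of 48.9% in heads and to 94.3% in place of 42.6% in muscles, where it shifted the median log2 fold change of all genes by 0.88. In heads the median log2 fold change of the tested members was 0.22 with DESeq2 and 0.24 with no filter, each over 37 members, in place of -0.71 for Sfp84E alone. In muscles, Acp32CD was -0.37 with 15 d in place of 3 d, against 2.32, neither past the threshold. No value past the threshold changed sign among the genes named with every library. Of the values of genes named with every library, 365 kept their side of the threshold, 3 gained and 5 lost it under these settings, and 454, 5 and 33 did so without 1 library. Low counts limit Sfp79B, Sfp33A4, Sfp26Ac and Sfp36F and all members in heads and muscles.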
